A study of Mus musculus with 74 samples.

Results

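The genes described are 9 mouse genes whose human counterparts encode organ autoantigens of autoimmune polyendocrine syndrome type 1 (APS-1), the disease of people who lack working AIRE: Nlrp5, Tgm4, Tph1, Th, Ddc, Bpifb1, Casr, Tg and Pdilt. They were taken by symbol from the deposited count tables, with no threshold on their values, and are 9 of 17853 genes listed in at least 1 of 6 tables. The tables hold 74 libraries of mTEChi, the mature medullary thymic epithelial cells sorted for high MHC class II, from mice aged 4 to 7 weeks. RNA was profiled by bulk MARS-seq, which reads tags from the 3′ end of transcripts.

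The C57BL/6 (B6) mice came from 4 lines. The null line gave 3 wild-type (Aire +/+), 5 Aire +/- and 4 Aire -/- libraries, and the Y86C line gave 3 wild-type, 3 heterozygous and 3 homozygous libraries. The C313X line gave 3 wild-type, 2 heterozygous and 3 homozygous libraries, and the C442G line gave 3, 5 and 6. On the NOD background, the V303M line gave 3 libraries of each genotype. A further NOD table held the null allele, with 3 libraries each of Aire +/- and Aire -/-. It also held 4 libraries of +/C313Y beside 5 wild types, and 3 of -/C313Y, which carry 1 null and 1 C313Y copy, beside 3 other wild types. Of the 5 wild types set against +/C313Y, 2 are titled C313T. Each mutant group was compared with the wild type of its own title form. NOD Aire -/- was compared with NOD Aire +/-, which had no wild type of its own title form. The labels do not say what the null allele lacks, how many mice gave a library, or whether libraries of a group came from separate mice, so p-values measure only the spread between these libraries. An additional library of the B6 null line has a title and a genotype label that contradict each other and entered no group, which left 73 libraries in 21 groups.

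AIRE is a nuclear protein of mTEChi that switches on many genes whose products otherwise mark single organs, so that developing T cells meet them in the thymus and self-reactive T cells are deleted or diverted. When it fails, as in APS-1, autoantibodies arise against a recurring set of tissue proteins, and several of them go with a particular organ disease. NLRP5, an oocyte protein, and CASR, the calcium sensor, are linked to failure of the parathyroid; BPIFB1 to autoimmune lung disease; TPH1, TH and DDC, the enzymes of monoamine synthesis, to gut, hair, skin and liver disease; TGM4 to inflammation of the prostate; PDILT is a testis protein, and TG is the thyroid hormone precursor. The comparisons ask how far each mutant Aire allele, in 1 or 2 copies, lowers the thymic RNA of these targets.

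Total counts ran from 1016619 to 7225403 per library. Values are given as CPM, the count of a gene scaled to a fixed library total. Of the 9 genes, 7 are listed in all 6 tables. Nlrp5 is not listed in the table of the NOD null and C313Y groups, Tgm4 is not listed in the B6 null table, and each table lists only genes that reached 6 counts in some library. The filter on low counts removed Tgm4 from the test in every table, Nlrp5 in the V303M table and Pdilt in the B6 null table, so tests were made on 7 or 8 of the 9 genes. Aire RNA itself ran from 1602 to 3250 CPM over the wild types and was higher than in the wild types of the same line in every B6 homozygous library, at 2760 to 3539 CPM in Aire -/-. With 3′ tags and a null allele of unstated extent, this level does not check the labels. The defining mTEChi markers were abundant in every group: the summed level of 14 markers was 37172.56 to 39051.53 CPM in the B6 null line's wild types and 42702.48 to 57103.99 CPM in its Aire -/- libraries.

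The stretches that precede the start sites are shown for 5 genes, because 4 of them (Nlrp5, Tgm4, Th and Bpifb1) were low in the same mutants while Ddc did not pass the test in any comparison. Each run holds the 250 bases before the start, 5′ to 3′ on the gene's strand, from RefSeq on GRCm38.p6, with every CG dinucleotide in capitals. The positions are chr7:23385639-23385888 (+) for Nlrp5, chr9:123034491-123034740 (+) for Tgm4, chr7:142899996-142900245 (-) for Th, chr2:154190568-154190817 (+) for Bpifb1 and chr11:11898145-11898394 (-) for Ddc. Nlrp5, Bpifb1 and Ddc have a second start in RefSeq, and the start nearest the GENCODE gene start is shown.
Nlrp5: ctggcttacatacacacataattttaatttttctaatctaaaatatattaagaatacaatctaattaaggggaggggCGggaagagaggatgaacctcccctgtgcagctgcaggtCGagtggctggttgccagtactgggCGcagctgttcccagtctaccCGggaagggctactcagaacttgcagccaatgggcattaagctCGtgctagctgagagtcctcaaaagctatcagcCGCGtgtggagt
Tgm4: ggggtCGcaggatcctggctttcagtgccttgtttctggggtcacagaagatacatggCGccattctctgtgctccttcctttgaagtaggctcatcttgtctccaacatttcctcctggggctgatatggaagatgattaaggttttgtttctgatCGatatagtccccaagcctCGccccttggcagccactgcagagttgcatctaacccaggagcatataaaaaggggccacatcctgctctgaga
Th: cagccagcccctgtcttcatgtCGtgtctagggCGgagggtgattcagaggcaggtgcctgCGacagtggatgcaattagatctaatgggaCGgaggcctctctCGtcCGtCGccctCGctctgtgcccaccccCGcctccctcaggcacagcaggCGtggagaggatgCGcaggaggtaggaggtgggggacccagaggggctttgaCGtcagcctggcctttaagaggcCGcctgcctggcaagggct
Bpifb1: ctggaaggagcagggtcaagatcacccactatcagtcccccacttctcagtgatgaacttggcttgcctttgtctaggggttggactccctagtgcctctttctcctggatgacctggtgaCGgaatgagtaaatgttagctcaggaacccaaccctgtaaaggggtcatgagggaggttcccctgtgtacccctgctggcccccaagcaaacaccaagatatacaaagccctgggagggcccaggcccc
Ddc: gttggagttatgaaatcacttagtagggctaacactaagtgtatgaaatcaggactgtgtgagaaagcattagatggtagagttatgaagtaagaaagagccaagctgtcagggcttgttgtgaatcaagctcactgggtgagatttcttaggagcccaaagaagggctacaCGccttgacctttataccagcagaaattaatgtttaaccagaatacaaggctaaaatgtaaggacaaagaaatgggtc

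The 5 stretches do not share a base composition. The Th stretch held 13 CG dinucleotides and was 64.4% G or C, and the Nlrp5 stretch held 7. The Tgm4 stretch held 4, and the Bpifb1 and Ddc stretches held 1 each. Over 32851 such RefSeq stretches the median was 6, the quartiles were 2 and 16, and the median G and C content was 52.4%. A TATAAA on either strand, present in 12.4% of all stretches, was found for Tgm4, for the Ddc start shown and for the second Nlrp5 start (18213 bases downstream of the first). A CACGTG, an E-box letter string present in 6.02% of all stretches, was found for none of the 8 genes that had a stretch in the table. The Th start of RefSeq lies 31133 bases inside the GENCODE gene, whose longest form reaches further upstream.

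The 9 genes did not move together. Th, Bpifb1 and Nlrp5 fell in all 4 homozygous B6 groups, and Tgm4 was read 2 times or fewer in each of the 3 homozygous B6 groups whose table lists it. Pdilt fell in the Y86C and C442G homozygotes. Tg fell in B6 Aire -/- but rose in the C442G homozygotes and in NOD Aire -/-, +/C313Y and -/C313Y, and Tph1 rose in the Y86C and C313X homozygotes. Ddc did not pass the test in any comparison, and Casr passed in 1 of 14. In bulk samples like these, fewer cells that carry a transcript and less transcript per cell cannot be told apart.

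**Figure D1:**
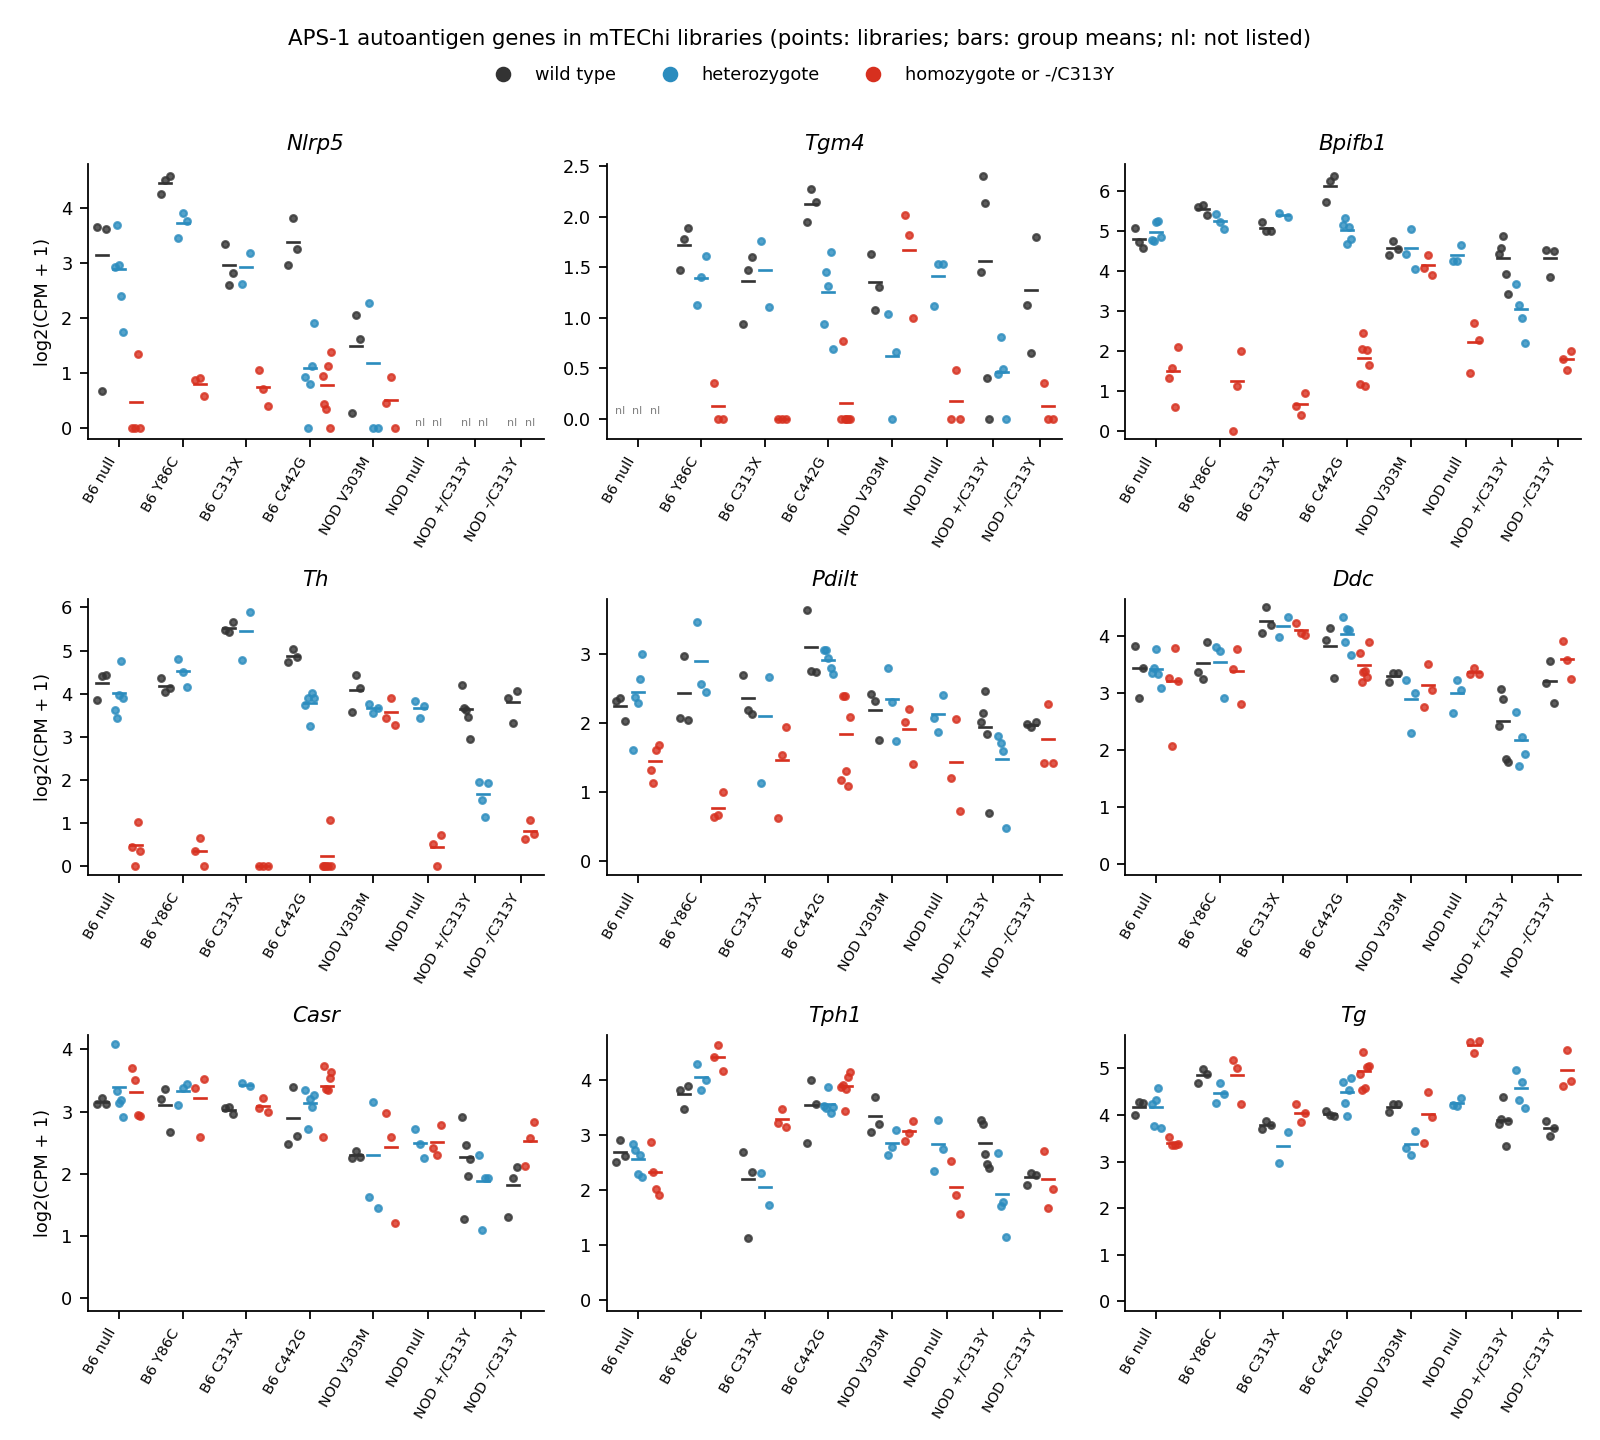
Level of each of the 9 genes in every grouped library, as log2(CPM + 1), by Aire line on the horizontal axis; points are libraries, bars are group means, and nl marks a table that does not list the gene. The red points (homozygotes and -/C313Y) of Th and Bpifb1 lie below the black wild-type points (blue Aire +/- points in NOD null) of every line that has red points except V303M, while those of Ddc and Casr overlap them in most lines.

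A gene was called when its adjusted p (edgeR quasi-likelihood test, Benjamini-Hochberg over all genes tested) was under 0.05. In B6 Aire -/-, 4 of 7 tested genes fell and 0 rose, against 36.6% of all 12700 tested genes called (18.9% lower and 17.7% higher), and the median log2 change was −0.71 for the 7 genes and −0.01 for all. In the Y86C homozygotes 4 of 8 fell and 1 rose, against 49.6% of all genes called (27.9% lower, 21.7% higher), with medians of −1.12 and −0.03. In the C313X homozygotes 3 of 8 fell and 1 rose (23.1% of all genes called, 15.2% lower and 7.85% higher). In the C442G homozygotes 4 of 8 fell and 2 rose (42.6%, 23.1% lower and 19.5% higher). In each of these 4 groups the share of tested genes that fell was above that over all genes, although 1 gene more or less moves such a share a great deal.

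The heterozygotes split by allele. None of the tested genes passed in B6 Aire +/- (0.48% of all genes called, 0.102% lower and 0.378% higher), in the Y86C heterozygotes (3.37%, 1.04% lower and 2.32% higher) or in the C313X heterozygotes, where 0.0% of all genes were called by edgeR and 0 by DESeq2, while 440 had an unadjusted p under 0.05. At an unadjusted p under 0.05, 1 of the 8 genes passed in the Y86C heterozygotes, Nlrp5, and 0 in the other 2 groups, and DESeq2 called 0 of them in all 3. In the C442G heterozygotes, with 1 normal copy of Aire, 3 of 8 fell and 1 rose, against 26.5% of all genes called (13.4% lower, 13.1% higher). On NOD, none passed in the V303M homozygotes (0.0657% of all genes called, 0.0511% lower and 0.0146% higher, which is 9 genes, with 795 at an unadjusted p under 0.05; DESeq2 called 43) or heterozygotes (0.0% called, and 499 unadjusted; DESeq2 called 2). At an unadjusted p under 0.05, 0 of 7 passed in the V303M homozygotes and 1 of 7, Tg, in the heterozygotes, and DESeq2 called 0 in both. In NOD Aire -/- against Aire +/-, 2 of 7 fell and 1 rose (13.3%, 9.11% lower and 4.21% higher). The same counts, 2 and 1 of 7, were found in +/C313Y (17.4%, 11.0% lower and 6.36% higher) and in -/C313Y (22.7%, 12.9% lower and 9.83% higher) against their wild types. Against Aire +/-, which shares its background and has 1 normal copy as well, +/C313Y had 2 lower and 0 higher (15.8%, 11.8% lower and 4.04% higher). The NOD comparisons that use +/C313Y or Aire +/- share those libraries.

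**Figure D2:**
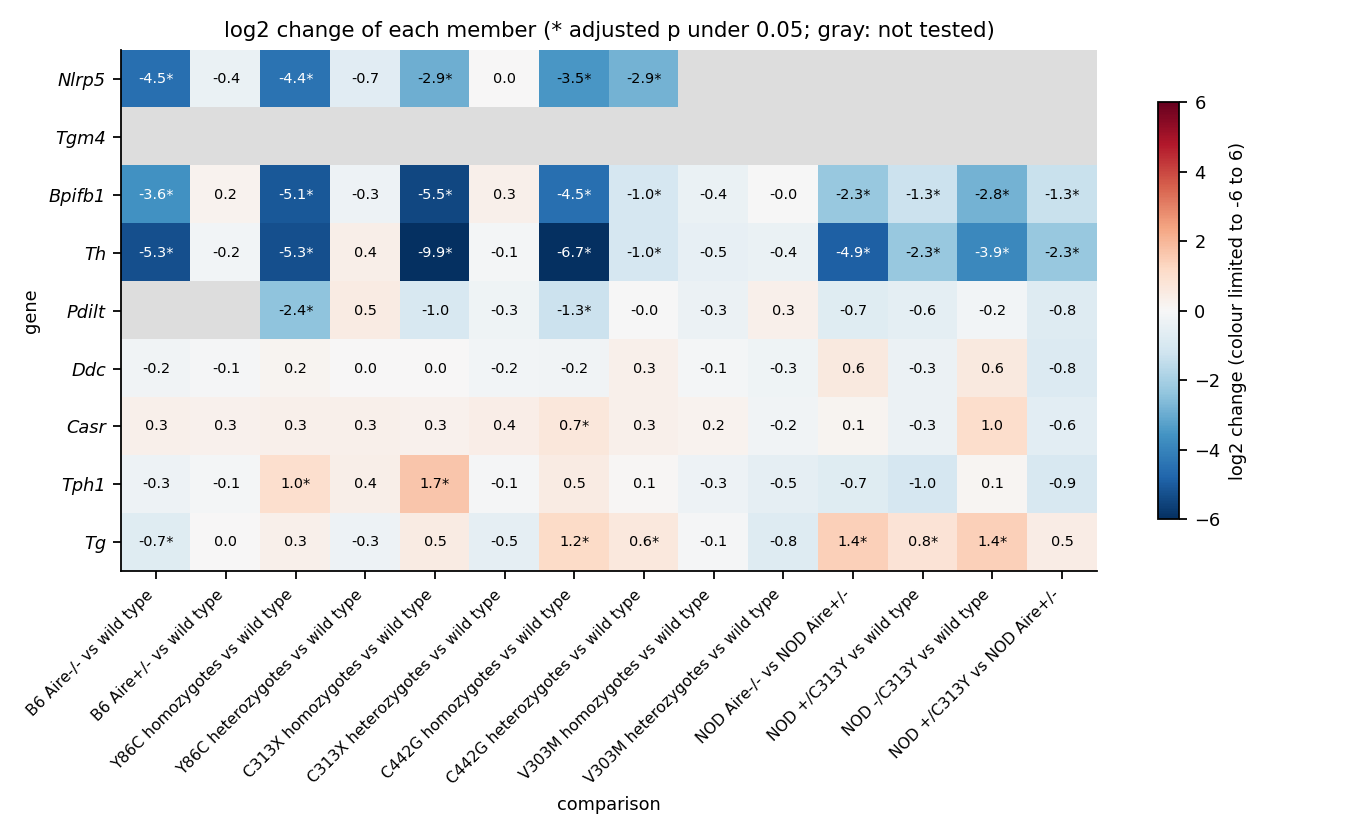
Log2 change of each gene (rows) in each of the 14 comparisons (columns), in color from −6 to 6, with a star where the adjusted p was under 0.05 and gray where the gene was not tested. Th and Bpifb1 carry a star in the 4 homozygous B6 columns, the C442G heterozygotes and the 4 columns of NOD null and C313Y groups, and the Ddc row carries none; a value against a group with 0 counts, as for Th in C313X, depends on the fit and is not a bound.

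Nlrp5 (NLR family, pyrin domain containing 5, also called MATER; chromosome 7, 23385889 to 23441922, plus strand) encodes a part of the subcortical maternal complex of the oocyte. In the Y86C line it was read at 18.2, 21.9 and 22.9 CPM in wild types, 10.005, 12.7 and 13.96 CPM in heterozygotes, and 0.499, 0.830 and 0.882 CPM in homozygotes. The 3 groups did not overlap. The homozygous log2 change was −4.43 ± 0.36 (SE; edgeR adjusted p = 8.93e-12), and the heterozygous change, −0.69 ± 0.22, did not pass (adjusted p = 0.0822).

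The B6 null line gave a less uniform picture of Nlrp5. Of the wild types 2 had 11.3 and 11.7 CPM, but the remaining one had 0.592 CPM, which is 1 count. Among the Aire -/- libraries 3 had 0 and 1 had 1.54 CPM, above that wild type, so the groups overlapped. The 3 counts of the Aire -/- libraries against 55 in the wild types give a 30.8-fold lower level (95% counting interval 10.02 to 154, counting error only), and edgeR gave an adjusted p of 0.00212. The Aire +/- libraries had 2.34, 4.30, 6.66, 6.82 and 11.9 CPM and spanned most of the range of the wild types.

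In the C313X line Nlrp5 was at 5.04, 6.09 and 9.20 CPM in wild types and 5.18 and 8.05 CPM in the heterozygotes. The homozygotes had 0.317, 0.639 and 1.08 CPM (log2 change −2.93 ± 0.56, edgeR adjusted p = 0.00349), all below the other libraries of the line. In the C442G line the heterozygotes passed the test as well as the homozygotes. Its wild types had 6.85, 8.54 and 13.1 CPM, its heterozygotes 0, 0.744, 0.916, 1.19 and 2.77 CPM, and its 6 homozygotes ran from 0 over a median of 0.647 to 1.63 CPM. Heterozygotes and homozygotes overlapped each other and neither overlapped the wild types, with log2 changes of −2.85 ± 0.49 (adjusted p = 4.99e-05) and −3.48 ± 0.49 (adjusted p = 6.63e-07).

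On NOD the V303M table alone lists Nlrp5, at low counts. Wild types had 0.209, 2.07 and 3.18 CPM, heterozygotes 0, 0 and 3.85, and homozygotes 0, 0.380 and 0.899 CPM. The groups overlapped, and in the fit without a filter the homozygous change was −1.79 (adjusted p = 0.942).

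Tgm4 (transglutaminase 4; chromosome 9, 123034726 to 123067561, plus strand) encodes the prostate enzyme that cross-links seminal proteins into the copulatory plug. Its exons share 830 bases with Zdhhc3 on the opposite strand and 307 with Gm49323, and whether strand was used in counting is not given in the sources used here. The gene was near the limit of these libraries, and its tests come from the fit without a filter on low counts. Outside V303M, no homozygous or C313Y library held more than 2 counts of Tgm4. In the Y86C and C313X lines its highest count was 6, the least that lists a gene, in wild types and heterozygotes. Its listing outside V303M thus rests on the groups where it is high. Its folds and tests there are descriptions, not independent support. In the Y86C line wild types had 1.78, 2.43 and 2.69 CPM, heterozygotes 1.18, 1.64 and 2.05 CPM, and homozygotes 0, 0 and 0.277 CPM. The 1 count of the homozygotes makes them 20.4-fold lower than wild type (95% counting interval 3.20 to 854; edgeR adjusted p without a filter 0.00267).

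The other homozygotes repeated this low level of Tgm4. In the C313X line wild types had 0.92, 1.78 and 2.03 CPM and the 3 homozygotes 0, which is at least 5.84-fold lower when 3 counts are taken as the floor of a group at 0 (adjusted p = 0.0177, edgeR without a filter). Of the C442G line, wild types had 2.85, 3.42 and 3.83 CPM, and of 6 homozygotes 5 had 0 and library 83 had 0.706 CPM, a 35.6-fold lower level from 2 counts (interval 8.87 to 310; adjusted p = 7.78e-06, edgeR without a filter). The C442G heterozygotes, at 0.616, 0.916, 1.49, 1.73 and 2.15 CPM, lay between both groups without overlapping either wild types or the homozygotes at 0, though the lowest was under homozygous library 83. Their difference from wild type had an adjusted p of 0.149 (edgeR without a filter).

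On NOD, Tgm4 was read at 1.18, 1.89 and 1.90 CPM in Aire +/- and at 0, 0 and 0.395 CPM in Aire -/-, a 10.5-fold lower level from 1 count (interval 1.63 to 439.02; edgeR without a filter, adjusted p = 0.137). The -/C313Y libraries had 0, 0 and 0.280 CPM against 0.567, 1.18 and 2.49 CPM in their wild types, 16.3-fold lower (interval 2.47 to 687; adjusted p = 0.0419, edgeR without a filter). The +/C313Y libraries had 0, 0.358, 0.405 and 0.760 CPM, and overlapped their wild types, which ran from 0 to 4.29 CPM (adjusted p = 0.0644, edgeR without a filter). V303M homozygotes had 0.993, 2.52 and 3.04 CPM against 1.11, 1.48 and 2.09 CPM in wild types, and overlapped them.

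The 3 monoamine enzymes, which belong to pathways that share Ddc, moved apart. Th makes the precursor of dopamine, noradrenaline and adrenaline and is rate-limiting; Tph1 is the rate-limiting enzyme of serotonin synthesis outside the brain; Ddc decarboxylates the products of both. Th fell in 9 comparisons, Tph1 rose in 2, and Ddc passed in 0 of 14.

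Th (tyrosine hydroxylase; chromosome 7, 142892752 to 142931128, minus strand) was at 13.5, 20.1 and 20.6 CPM in the wild types of the B6 null line and at 0, 0.276, 0.376 and 1.03 CPM in Aire -/-. The log2 change was −5.28 ± 0.50 (edgeR adjusted p = 2.12e-09). Aire +/- libraries had 9.82, 11.3, 14.04, 14.6 and 26.3 CPM and enclosed the wild-type range (log2 change −0.19, adjusted p = 0.909). In the Y86C line wild types had 15.4, 16.6 and 19.6 CPM, heterozygotes 16.8, 21.8 and 27.1 CPM and homozygotes 0, 0.277 and 0.588 CPM. The 3 counts of these homozygotes put them 52.1-fold below wild type (95% counting interval 17.4 to 256; adjusted p = 3.83e-11 by edgeR).

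The C313X line had the highest wild-type Th among these groups, at 41.8, 43.2 and 49.4 CPM, and its homozygotes had 0 in all 3 libraries. Against 334 counts in the wild types, this is at least 150.02-fold lower by the same floor (edgeR adjusted p = 6.18e-05). The heterozygotes, 26.7 and 58.3 CPM, lay on both sides of the wild types. The C442G wild types had 25.7, 27.9 and 31.7 CPM, and of 6 homozygotes 5 had 0 and library 92 had 1.12 CPM (log2 change −6.73 ± 0.40, adjusted p = 7.9e-15). The C442G heterozygotes, at 8.55, 12.4, 13.8, 13.9 and 15.3 CPM, lay clear of both groups, with a log2 change of −1.02 ± 0.23 (adjusted p = 0.00132).

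On NOD, Th separated the alleles in the same way. Aire +/- libraries had 9.85, 12.2 and 13.2 CPM and Aire -/- libraries 0, 0.434 and 0.651 CPM, a 37.9-fold lower level from 2 counts (interval 10.3 to 317; edgeR adjusted p = 8.33e-07). The +/C313Y libraries had 1.22, 1.90, 2.81 and 2.86 CPM against 6.78, 10.03, 11.3, 11.7 and 17.5 CPM in their wild types, with no overlap (log2 change −2.25 ± 0.32, adjusted p = 7.69e-06). They were also lower than Aire +/- (log2 change −2.27 ± 0.34, adjusted p = 2.26e-05). The -/C313Y libraries had 0.560, 0.676 and 1.10 CPM against 9.07, 13.9 and 15.7 CPM (log2 change −3.88 ± 0.43, adjusted p = 1.54e-07). V303M homozygotes had 8.61, 9.88 and 14.02 CPM against 10.9, 16.6 and 20.8 CPM in wild types, which overlap (log2 change −0.51 ± 0.26, adjusted p = 0.893).

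Tph1 (tryptophan hydroxylase 1; chromosome 7, 46644641 to 46672537, minus strand) was at 10.1, 13.2 and 13.9 CPM in the Y86C wild types, 13.1, 15.1 and 18.8 CPM in heterozygotes and 17.0, 20.5 and 24.1 CPM in homozygotes. All homozygotes were above all wild types (log2 change 0.99 ± 0.21, edgeR adjusted p = 0.000194). In the C313X line wild types had 1.19, 4.06 and 5.52 CPM and homozygotes 7.91, 8.37 and 10.2 CPM, again apart (log2 change 1.65 ± 0.49, adjusted p = 0.0306). That call was lost when wild-type library 6, at 1.19 CPM, or homozygous library 1 or 10 was left out (adjusted p 0.084 to 0.102). In the other homozygotes the levels overlapped the wild types. They ran from 9.87 to 16.8 CPM against 6.28 to 15.0 CPM in the C442G line (log2 change 0.49 ± 0.23, adjusted p = 0.0815, or 0.0175 and 0.0382 without the wild type at 15 CPM or the homozygote at 9.87 CPM), and from 2.76 to 6.39 CPM against 4.74 to 6.51 CPM in the B6 null line (log2 change −0.31 ± 0.39, adjusted p = 0.584).

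On NOD no change of Tph1 passed. The +/C313Y libraries had 1.204, 2.28, 2.43 and 5.36 CPM against 4.31, 4.53, 5.28, 8.28 and 8.73 CPM in wild types (log2 change −1.01 ± 0.39, edgeR adjusted p = 0.077). Library 50, at 5.36 CPM, was the one inside the wild-type range, and without it the adjusted p was 0.011. Aire -/- libraries had 1.95, 2.77 and 4.78 CPM against 4.11, 5.69 and 8.71 CPM in Aire +/- (adjusted p = 0.378).

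Ddc (aromatic L-amino acid decarboxylase; chromosome 11, 11814101 to 11898144, minus strand) was at 6.51, 9.79 and 13.1 CPM in the B6 null wild types and at 3.21, 8.29, 8.64 and 12.8 CPM in Aire -/-, fully overlapping. The 95% interval of the log2 change was −0.85 to 0.42 (edgeR adjusted p = 0.639). For homozygotes of the C442G line the interval was −0.65 to 0.23, in the C313X line −0.46 to 0.50 and in the Y86C line −0.40 to 0.72, so changes beyond about 2-fold lie outside each of these intervals. On NOD, Aire -/- libraries had 9.11, 9.12 and 9.88 CPM against 5.29, 7.31 and 8.33 CPM in Aire +/-, all higher but not called (log2 change 0.58 ± 0.36, adjusted p = 0.362). The -/C313Y libraries had 8.46, 11.0 and 14.002 CPM against 6.08, 7.99 and 10.8 CPM in wild types (log2 change 0.60 ± 0.34, adjusted p = 0.226). With all 8 NOD wild types of the table as control, the log2 change was 1.11 and passed (edgeR adjusted p = 0.00845). That control adds the 5 wild types set against +/C313Y, whose mean Ddc was 4.65 CPM. The mean was 8.28 CPM in the 3 wild types of the -/C313Y title form. The larger change thus includes a difference between wild types.

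Other genes of monoamine synthesis and handling, taken from a list of 18 symbols without the 3 enzymes, also moved both ways. In B6 Aire -/- 6 of 14 tested fell and 3 rose, beside 18.9% and 17.7% of all genes. The median log2 change was −0.22 beside −0.01 for all genes. In the Y86C, C313X and C442G homozygotes the counts were 9 and 4 of 16, 5 and 2 of 17, and 5 and 5 of 14. The shares of all genes there were 27.9% lower and 21.7% higher, 15.2% and 7.85%, and 23.1% and 19.5%. The shares that rose in the null, Y86C and C313X homozygotes were thus near those of all genes. Pnmt, which makes adrenaline, fell in B6 Aire -/- (log2 change −4.10 ± 0.55, edgeR adjusted p = 9.19e-05), as did the vesicular transporter Slc18a2 (−3.93 ± 0.45, adjusted p = 4.18e-08). The dopamine transporter Slc6a3 fell in the Y86C homozygotes (−5.16 ± 0.53, adjusted p = 1.55e-09). Hdc, the histamine-forming enzyme and itself an APS-1 autoantigen, rose in the 4 homozygous B6 groups, by 0.86 in Aire -/-, 1.19 in Y86C, 1.0 in C313X and 1.14 in C442G on the log2 scale.

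Few genes of endocrine cells that hold such products could be tested. Of the neuroendocrine list, 1 fell and 2 rose of 5 in B6 Aire -/-, beside 18.9% and 17.7% of all genes. The counts were 3 and 2 of 5 in Y86C homozygotes, beside 27.9% and 21.7%. They were 2 and 1 of 7 in C313X homozygotes, beside 15.2% and 7.85%. In C442G homozygotes they were 3 and 1 of 7, beside 23.1% and 19.5%. Scg2, a granule protein, fell in the Y86C homozygotes (log2 change −4.80 ± 0.46, edgeR adjusted p = 3.42e-10). Insm1, a transcription factor of endocrine cells named here after its values were seen, rose in the same group (1.15, adjusted p = 9.13e-13).

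Bpifb1 (BPI fold-containing family B member 1; chromosome 2, 154190818 to 154220369, plus strand) encodes a secreted protein of airway goblet cells and glands. It was at 23.2, 25.4 and 32.8 CPM in the B6 null wild types, 25.9, 26.7, 28.1, 36.5 and 37.3 CPM in Aire +/- and 0.514, 1.503, 2.004 and 3.32 CPM in Aire -/-. Heterozygotes overlapped the wild types and the Aire -/- libraries did not (log2 change −3.62 ± 0.29, edgeR adjusted p = 6.05e-11). In the Y86C line wild types had 41.3, 47.7 and 49.4 CPM, heterozygotes 32.2, 36.5 and 42.4 CPM, and homozygotes 0, 1.18 and 2.99 CPM (log2 change −5.07 ± 0.34, adjusted p = 1.97e-12 for homozygotes). In the C313X line they had 31.1, 31.4 and 36.8 CPM, 40.3 and 43.1 CPM, and 0.319, 0.540 and 0.949 CPM (log2 change −5.48 ± 0.32, adjusted p = 2.37e-06). Both C313X heterozygotes lay above the wild types, with no call (adjusted p = 0.998).

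Bpifb1 in the C442G line again placed the heterozygotes between the other groups. Wild types had 52.5, 75.2 and 81.98 CPM, heterozygotes 24.9, 27.1, 33.7, 34.8 and 39.3 CPM, and the 6 homozygotes 1.18 CPM at the lowest, 2.63 at the median and 4.54 at the highest. No 2 of these groups overlapped. The log2 changes against wild type were −1.01 ± 0.18 (edgeR adjusted p = 5.91e-05) and −4.54 ± 0.22 (adjusted p = 1.31e-16).

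Bpifb1 fell on NOD too. Aire -/- libraries had 1.74, 3.91 and 5.53 CPM against 18.2, 18.2 and 24.4 CPM in Aire +/- (log2 change −2.28 ± 0.42, edgeR adjusted p = 0.000386). The +/C313Y libraries had 3.61, 6.08, 7.98 and 11.8 CPM against 9.86, 14.2, 20.5, 22.9 and 28.7 CPM in wild types; library 50 at 11.8 CPM overlapped the lowest wild type (log2 change −1.28 ± 0.31, adjusted p = 0.00319). The -/C313Y libraries had 1.92, 2.52 and 3.04 CPM against 13.6, 21.8 and 22.2 CPM (log2 change −2.85 ± 0.42, adjusted p = 1.16e-05). Against Aire +/-, +/C313Y was lower by a log2 change of −1.32 ± 0.33 (adjusted p = 0.00603). V303M homozygotes, at 13.9, 16.0 and 20.3 CPM, met the lowest of their wild types at 20.3, 22.5 and 26.3 CPM (log2 change −0.41 ± 0.22, adjusted p = 0.924).

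The other airway secretory genes fell with Bpifb1. Of 18 listed symbols, 10 of 12 tested fell and 0 rose in B6 Aire -/- (median log2 change −3.29), 15 of 15 in the Y86C homozygotes (−4.98, or −4.77 with genes at 0 set to their bound), 13 of 14 in the C313X homozygotes (−5.68, or −4.27) and 16 of 16 in the C442G homozygotes (−5.17, or −5.05). Of all genes 18.9%, 27.9%, 15.2% and 23.1% fell in these groups. Bpifb5, the next gene on chromosome 2, starts 3372 bases beyond the end of Bpifb1 and fell in B6 Aire -/- to 0.332 ± 0.235 CPM (SD, n = 4). The gel-forming mucin Muc5ac fell there as well (log2 change −4.79 ± 0.55, edgeR adjusted p = 1.6e-07). In the C442G heterozygotes 12 of 16 fell (median −1.70), and on NOD 11 of 13 fell in Aire -/- (−2.51), 10 of 13 in +/C313Y (−2.55) and 11 of 13 in -/C313Y (−2.77). The shares of all genes that fell there were 13.4%, 9.11%, 11.0% and 12.9%.

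Casr (calcium-sensing receptor; chromosome 16, 36493696 to 36562141, minus strand) is the receptor through which parathyroid cells read blood calcium. Its level did not follow Aire in the manner of the genes above. In the B6 null line wild types had 7.66, 7.73 and 8.28 CPM and Aire -/- libraries 6.63, 6.68, 10.4 and 12.0 CPM, on both sides of the wild types (log2 change 0.28 ± 0.32, edgeR adjusted p = 0.517). The C442G wild types had 4.57, 5.12 and 9.57 CPM, and the 6 homozygotes had 5.02 CPM at the lowest, 9.999 at the median and 12.3 at the highest. The groups overlapped, and the log2 change of 0.67 ± 0.28 was just past the threshold (adjusted p = 0.0497). The call was lost with RLE factors (0.0622), with DESeq2 (0.0816), with only the compared groups in the fit (0.063), and when any of 6 libraries was left out (0.0601 to 0.182). The -/C313Y libraries had 3.36, 4.93 and 6.09 CPM against 1.48, 2.83 and 3.31 CPM, apart but not called (log2 change 1.03 ± 0.47, adjusted p = 0.118).

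Several parathyroid genes other than Casr fell. Of 10 listed symbols, 5 of 5 tested fell in B6 Aire -/- (median log2 change −1.20), 3 of 5 in Y86C, 3 of 6 in C313X and 5 of 5 in C442G homozygotes, and none rose in these groups. Of all genes 18.9%, 27.9%, 15.2% and 23.1% fell there, and 17.7%, 21.7%, 7.85% and 19.5% rose. Pth, the parathyroid hormone that Casr controls in the gland, fell in B6 Aire -/- (log2 change −3.95 ± 0.68, edgeR adjusted p = 5.18e-05) and in the Y86C homozygotes (−4.70 ± 0.44, adjusted p = 2.33e-10). So the hormone fell in libraries in which its calcium sensor did not.

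Tg (thyroglobulin; chromosome 15, 66670753 to 66850721, plus strand) is the protein on which thyroid hormone is built. It was the one gene of the 9 that was called in both directions. In the B6 null line wild types had 15.0, 18.0 and 18.3 CPM and Aire -/- libraries 9.22, 9.24, 9.40 and 10.52 CPM, all lower (log2 change −0.71 ± 0.23, edgeR adjusted p = 0.0172). Without the wild type at 18.3 or at 18.0 CPM the adjusted p was 0.0575 or 0.0624. In the C442G line wild types had 14.8, 15.0 and 16.0 CPM, heterozygotes 14.9, 18.1, 22.2, 25.2 and 26.8 CPM, and the 6 homozygotes from 22.2 over a median of 30.0 to 40.01 CPM. The homozygotes lay above all wild types (log2 change 1.16 ± 0.20, adjusted p = 1.68e-05), and the heterozygotes overlapped both (0.63 ± 0.21, adjusted p = 0.0283). The heterozygous call was lost with DESeq2 (0.067) and without any of 4 libraries (0.0513 to 0.131).

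In the Y86C and C313X homozygotes Tg did not pass. They had 18.0, 31.2 and 35.4 CPM against 24.6, 28.3 and 30.8 CPM (log2 change 0.32, edgeR adjusted p = 0.167), and 13.4, 15.5 and 17.8 CPM against 12.0, 12.9 and 13.6 CPM (0.47, adjusted p = 0.263). Mean CPM in the Y86C line was nearly equal, at 28.2 in homozygotes and 27.9 in wild types. The log2 change is on the scale of the fit, which differs from CPM by library total. Without Y86C homozygous library 9, at 18.0 CPM, the change was 0.52 (adjusted p = 0.0143).

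On NOD, Tg rose. Aire -/- libraries had 39.1, 46.4 and 46.9 CPM against 17.4, 17.6 and 19.5 CPM in Aire +/-, more than double in every library (log2 change 1.42 ± 0.25, edgeR adjusted p = 0.000169). The -/C313Y libraries had 23.8, 25.7 and 41.4 CPM against 10.8, 12.2 and 13.6 CPM (1.42 ± 0.26, adjusted p = 0.000154), also apart. The +/C313Y libraries had 16.9, 19.0, 25.1 and 30.0 CPM and overlapped the wild types at 9.06, 13.1, 13.6, 13.998 and 20.0 CPM (0.82 ± 0.22, adjusted p = 0.00771). That call was lost without +/C313Y library 50 (0.0699) and with only the compared groups in the fit (0.0574). In the V303M line heterozygotes had 7.87, 8.76 and 11.6 CPM against 15.7, 17.7 and 17.7 CPM, below every wild type (log2 change −0.77), but the adjusted p was 1.0, and the homozygotes ran from 9.502 to 21.4 CPM.

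The gene body of Tg spans Sla on the opposite strand, a gene of lymphocyte signaling, with no shared exon bases, and shares 112 exon bases with Gm17140. Sla ran from 15.2 to 20.3 CPM in NOD Aire +/- and from 8.30 to 13.02 CPM in Aire -/-, opposite in direction to Tg. In the other 2 comparisons in which Tg rose on NOD, Sla was higher too: at 10.8 to 13.7 CPM in -/C313Y against 8.5003 to 9.18 CPM in its wild types, with no overlap (edgeR adjusted p = 0.0786), and at 15.4 to 19.7 CPM in +/C313Y against 10.2 to 17.4 CPM (adjusted p = 0.145). In the B6 null line Sla was at 5.47 to 9.79 CPM in wild types and 3.87 to 9.24 CPM in Aire -/-. The change of Sla did not pass in NOD or B6 Aire -/- either (edgeR adjusted p = 0.0987 and 0.566), and its part in the Tg values was not tested.

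The thyroid list of 17 symbols held genes that fell and genes that rose. In B6 Aire -/- 2 of 6 tested fell and 2 rose, beside 18.9% and 17.7% of all genes. In Y86C homozygotes 4 fell and 1 rose of 8, beside 27.9% and 21.7%. In C313X homozygotes 3 fell of 9, beside 15.2%. In C442G homozygotes 2 fell and 1 rose of 7, beside 23.1% and 19.5%. On NOD 2 of 9 fell in Aire -/- (median log2 change −0.92, beside −0.02 for all genes). Iyd, which salvages iodide in the thyroid, fell in B6 Aire -/- (log2 change −3.11 ± 0.45, edgeR adjusted p = 2.53e-06) and in NOD Aire -/- (−2.08 ± 0.48, adjusted p = 0.00326).

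Pdilt (protein disulfide isomerase-like, testis expressed; chromosome 7, 119486587 to 119523489, minus strand) encodes a chaperone of the testis that sperm need for fertilization. In the Y86C line wild types had 3.14, 3.20 and 6.89 CPM, heterozygotes 4.45, 4.93 and 10.005 CPM, and homozygotes 0.553, 0.588 and 0.998 CPM. Homozygotes lay apart from both other groups (log2 change −2.40 ± 0.61, edgeR adjusted p = 0.00145). For C442G, wild types had 5.69, 5.74 and 11.4 CPM, heterozygotes 5.55, 5.97, 6.69, 7.33 and 7.34 CPM, and the 6 homozygotes 1.12 CPM at the lowest, 2.37 at the median and 4.27 at the highest. Homozygotes were again below all others (log2 change −1.29 ± 0.37, adjusted p = 0.00515), but without wild-type library 86, at 11.4 CPM, the adjusted p was 0.0833.

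Pdilt was low in the other homozygotes of B6 without a call. C313X homozygotes had 0.540, 1.92 and 2.85 CPM against 3.38, 3.56 and 5.52 CPM, with no overlap (log2 change −0.98 ± 0.68, edgeR adjusted p = 0.341). B6 Aire -/- libraries had 1.203, 1.503, 2.05 and 2.21 CPM against 3.09, 4.01 and 4.14 CPM, also apart, and in the fit without a filter the change was −0.93 (adjusted p = 0.15). NOD Aire -/- libraries had 0.651, 1.30 and 3.16 CPM against 2.65, 3.23 and 4.33 CPM in Aire +/-, and overlapped (adjusted p = 0.511). At these counts, 12 to 53 summed over a homozygous group outside the Y86C line and 6 within it, counting error alone is large.

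Pdilt shares 104 exon bases with Acsm5 and 201 with Gm37518, both on the opposite strand. Of the sperm maturation list of 16 symbols, most tested genes are chaperones that all cells use. In B6 Aire -/- 5 of 7 fell, beside 18.9% of all genes. Of these 5, 4 are such chaperones, with log2 changes from −0.32 for Calr to −0.22 for P4hb. In the Y86C homozygotes 2 of 7 fell and 1 rose, beside 27.9% and 21.7% of all genes. Prss37, a sperm protease-like protein, fell in the Y86C homozygotes (log2 change −6.15 ± 0.60, edgeR adjusted p = 5.14e-10) and in the C442G homozygotes (−5.21 ± 0.62, adjusted p = 4.6e-08).

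The oocyte and prostate lists fell with Nlrp5 and Tgm4. Of 16 oocyte symbols, 6 of 9 tested fell and 1 rose in each of the 4 homozygous B6 groups, with median log2 changes of −4.01 (null), −5.14 (Y86C), −5.47 (C313X, or −3.85 with genes at 0 set to their bound) and −4.49 (C442G). Khdc3, a partner of Nlrp5 in the subcortical maternal complex and itself reported as an APS-1 autoantigen, fell to 0.363 ± 0.333 CPM (SD, n = 4) in B6 Aire -/- (log2 change −5.73 ± 0.41, edgeR adjusted p = 4.61e-12). The 1 riser was Zp2, an egg-coat protein named after its values were seen, with a log2 change of 1.92 in B6 Aire -/- (adjusted p = 4.73e-06). Of 16 prostate symbols, 4 of 4 tested fell in B6 Aire -/-, 5 of 5 in Y86C, 5 of 8 in C313X and 4 of 4 in C442G homozygotes, and 0 rose. For both lists the shares of all genes that fell in these groups were 18.9%, 27.9%, 15.2% and 23.1%. Those that rose were 17.7%, 21.7%, 7.85% and 19.5%. Hoxb13, the prostate homeobox factor, fell in B6 Aire -/- (−7.03 ± 0.70, adjusted p = 5.53e-08). Other transglutaminases did not share the loss of Tgm4: in the 4 homozygous B6 groups 0 or 1 fell and 1 rose of the 3 or 4 tested. Too few were tested to set these counts apart from the shares over all genes.

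**Figure D3:**
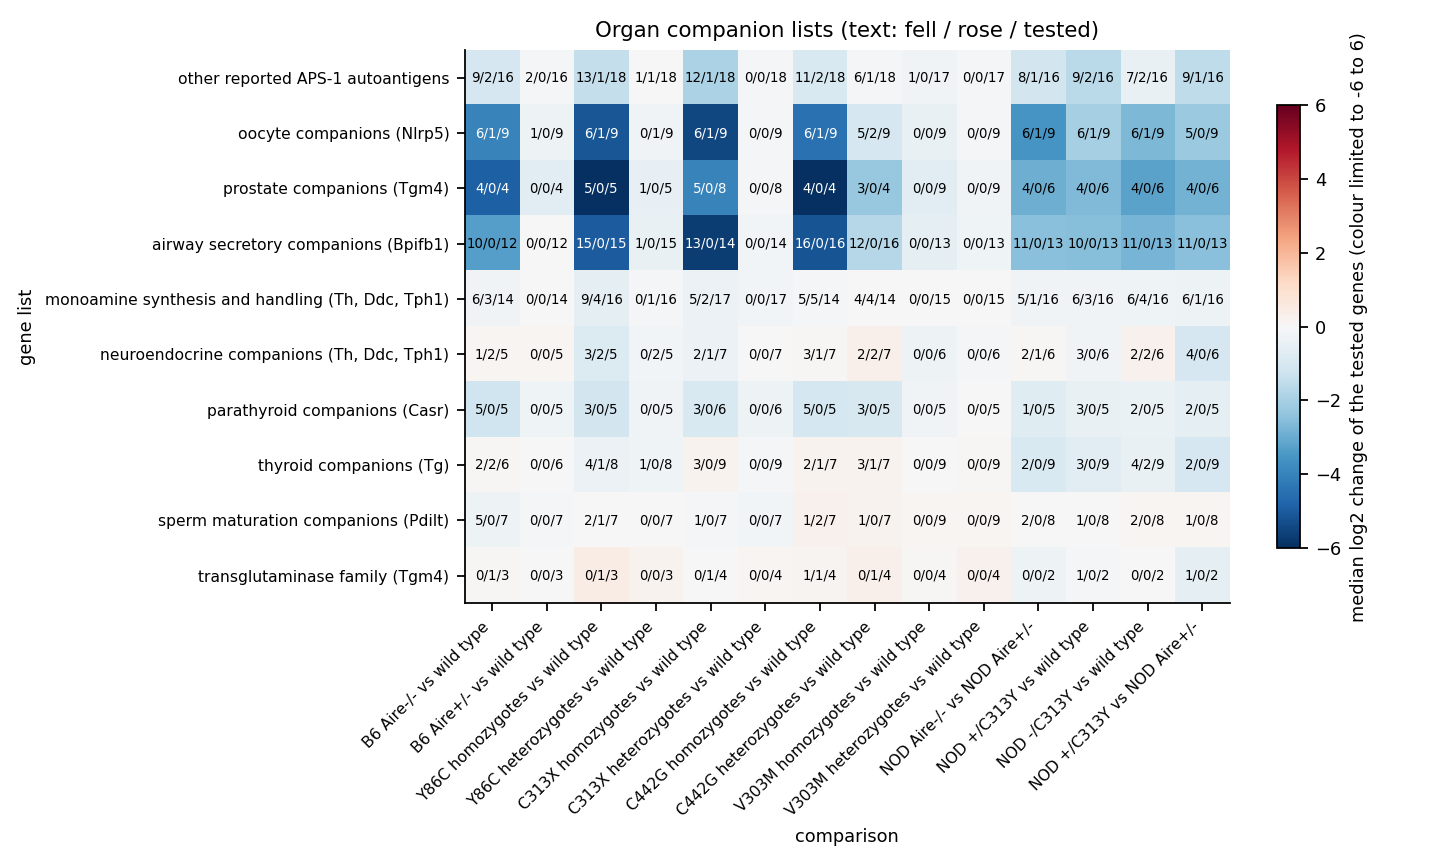
Gene lists of the organs of the 9 genes (rows) in each of the 14 comparisons (columns); text gives genes that fell, rose and were tested, and color gives the median log2 change of the tested genes. The airway, oocyte and prostate rows are blue in the homozygous B6 and the NOD null and C313Y columns, with 10 to 16 airway genes lower in each, while the sperm and transglutaminase rows stay pale there. Of all genes 9.11% to 27.9% were lower in these columns.

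A further list held 27 symbols of other reported APS-1 autoantigens. In B6 Aire -/- 9 of 16 tested fell and 2 rose (median log2 change −1.03, beside −0.01 for all genes), in Y86C homozygotes 13 and 1 of 18 (−1.42), in C313X homozygotes 12 and 1 of 18 (−1.90), and in C442G homozygotes 11 and 2 of 18 (−0.91). The shares of all genes in these groups were 18.9%, 27.9%, 15.2% and 23.1% lower, and 17.7%, 21.7%, 7.85% and 19.5% higher. On NOD the counts were 8 and 1 of 16 in Aire -/- (−1.10), 9 and 2 of 16 in +/C313Y (−1.61) and 7 and 2 of 16 in -/C313Y (−0.42). Of all genes 9.11%, 11.0% and 12.9% were lower there, and 4.21%, 6.36% and 9.83% higher. Ins2, an insulin gene, fell in B6 Aire -/- (log2 change −7.87 ± 0.52, edgeR adjusted p = 1.88e-11), and Cyp1a2, a liver cytochrome, had 0 counts in the C313X homozygotes against 67.8 ± 10.8 CPM (SD, n = 3) in wild types. Ins2 is also the nearest gene to Th considered here, 149370 bases away on chromosome 7.

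The change with 1 mutant copy was compared across the B6 lines in 1 fit. None of the tested genes differed between the Y86C and null heterozygous effects, or between those of C313X and the null (0.0% of all genes called by edgeR in both, with 0 and 29 by DESeq2 and 540 and 1327 at an unadjusted p under 0.05). In the C442G line 2 of 8 differed, both lower than in the null line (5.75% of all genes called, 3.51% lower and 2.24% higher). Bpifb1 differed by −1.20 ± 0.29 (edgeR adjusted p = 0.00757) and Nlrp5 by −2.42 ± 0.73 (adjusted p = 0.0385), the latter lost without any of 10 libraries (0.0517 to 0.126). For Th the difference was −0.83 ± 0.40 (adjusted p = 0.236).

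**Figure D4:**
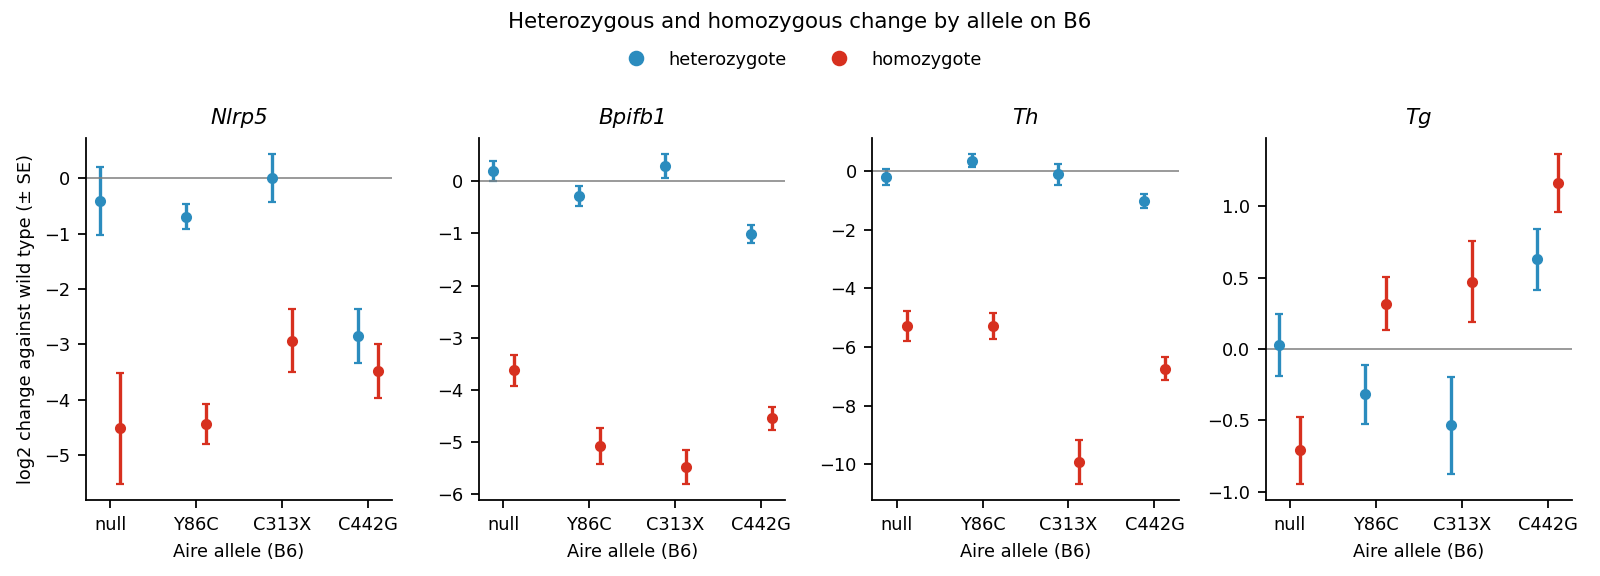
Log2 change against wild type (± SE) of Nlrp5, Bpifb1, Th and Tg in heterozygotes (blue) and homozygotes (red) of the 4 B6 lines. The lowest blue points of Nlrp5, Bpifb1 and Th are those of C442G, at −2.85, −1.01 and −1.02, and that of Nlrp5 in Y86C is at −0.69, and the red points of Tg run from −0.71 in the null line to 1.16 in the C442G line; the C313X value of Th is against a group at 0 and is not a bound.

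The homozygous effects of the point mutants were set against that of the null allele in the same way. For Y86C 0 of 8 differed (2.0% of all genes called, 0.887% lower and 1.11% higher), for C313X 2 of 8 were higher (2.69%, 0.784% lower and 1.91% higher), and for C442G 1 of 8 was higher (2.91%, 1.35% lower and 1.55% higher). Tg was higher than under the null by 1.92 ± 0.33 with C442G (edgeR adjusted p = 0.000532) and by 1.26 ± 0.36 with C313X (adjusted p = 0.0428), the latter lost without any of 8 libraries (0.0545 to 0.119). Tph1 was higher with C313X by 2.10 ± 0.51 (adjusted p = 0.017), lost without either of 2 libraries (0.0505 to 0.126). With Y86C the differences were 1.13 for Tg (adjusted p = 0.059, or 0.0219 without 1 library) and 1.40 ± 0.44 for Tph1 (0.0811, or 0.0365 without 1 library). At an unadjusted p under 0.05, 3 of the 8 Y86C differences passed: Tg, Tph1 and Bpifb1. For Th, Bpifb1 and Nlrp5 none of the 3 differences passed. The intervals were wide: for Th with Y86C the 95% interval ran from −2.51 to 2.76. These differences compare lines whose libraries were deposited in separate tables, each against its own wild type.

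Loss of both copies, set against 1 copy, was compared between strains, in a comparison added after the data were seen. Of 7 genes 1 was called, Tg, higher on NOD (1.04% of all genes called, 0.465% lower and 0.571% higher). Its effect was higher on NOD than on B6 by 2.16 ± 0.33 on the log2 scale (edgeR adjusted p = 9.58e-05). The difference for Bpifb1 was 1.55 ± 0.60 (adjusted p = 0.256) and for Th 0.23 ± 1.52 (adjusted p = 0.988). Strain and deposited table cannot be told apart here.

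Across the 73 grouped libraries the 7 members listed in all 6 tables did not vary as 1 block. Nlrp5 and Tgm4, not listed in all of them, were left out. As a description over libraries that share lines, tables and depth, Pearson's r of log2(CPM + 1) was 0.93 between Th and Bpifb1, 0.71 between Pdilt and Bpifb1, 0.62 between Pdilt and Th, and −0.37 between Tg and Th. Among 11671 genes compared, those most like Th were Nppa (0.97) and Avp (0.96), and those most like Bpifb1 were Gal (0.95) and Ppy (0.94), all of which encode secreted peptides. Those most like Pdilt were Saa3 (0.76) and Apoa4 (0.75), like Tph1 Dgkk (0.83) and Olfm3 (0.74), and like Casr Sc5d (0.78) and S100a2 (0.77). Group means of Casr were 6.42 to 9.78 CPM on B6 and 2.54 to 4.79 CPM on NOD. Sc5d and S100a2 were likewise higher in every B6 group than in any NOD group. The correlations with Casr thus include a difference between strains, which cannot be told apart from deposited table. Those most like Ddc were Ces2e (0.74) and Gm4841 (0.73), and like Tg Ggh (0.74) and Ccdc33 (0.69).

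The levels of markers of other cells differed in several of these groups. Of the thymocyte markers 0 of 8 tested were called in B6 Aire -/-, and the summed level of 11 listed was 175.76 to 238.98 CPM in wild types and 181.58 to 252.48 CPM in Aire -/-. In NOD Aire -/- 4 of 10 fell, with sums of 116.96 to 154.97 CPM against 188.24 to 320.21 CPM in Aire +/- and 1 marker at 0. They summed to 193.36 to 233.76 CPM in the C313X homozygotes against 294.26 to 363.04 CPM in wild types (4 of 11 fell), and to 124.6 to 152.05 CPM in the C442G heterozygotes against 180.93 to 289.77 CPM (2 of 9 fell). Of all genes 36.6% were called either way in B6 Aire -/-. The shares that fell were 9.11% in NOD Aire -/-, 15.2% in the C313X homozygotes and 13.4% in the C442G heterozygotes. Of the macrophage and dendritic cell markers 2 fell and 3 rose of 11 in B6 Aire -/-, close to the 18.9% and 17.7% of all genes (summed 1108.75 to 1477.83 CPM against 967.41 to 1185.41 CPM), and 6 fell and 1 rose of 10 in the C313X homozygotes (1471.65 to 1694.63 CPM against 1834.54 to 3516.03 CPM). In the C313X homozygotes 15.2% of all genes fell and 7.85% rose. Markers of mature mTEC rose in 12 of 14 in B6 Aire -/-, 12 of 14 in Y86C, 3 of 14 in C313X and 9 of 14 in C442G homozygotes. Beside these, 17.7%, 21.7%, 7.85% and 19.5% of all genes rose. Cortical epithelial markers summed higher in every homozygous library of these lines than in their wild types: 4646.84 to 5677.9 CPM against 2850.04 to 2971.51 CPM in the null line, 6984.95 to 8059.11 against 4012.2 to 4392.07 in Y86C, 4359.52 to 5600.26 against 3689.04 to 4165.66 in C313X and 5282.79 to 6474.42 against 3529.38 to 4397.87 in C442G. By gene, 2 of 7, 3 of 7, 2 of 8 and 3 of 9 rose, and 2, 3, 2 and 2 fell. Over all genes 17.7%, 21.7%, 7.85% and 19.5% rose, and 18.9%, 27.9%, 15.2% and 23.1% fell. The sums are weighted to abundant genes: in B6 Aire -/- mean Tbata was 2978 CPM against 1385 in wild types, and Ccl25 1176 against 630. In Y86C homozygotes mean Ctsl was 64.9 CPM against 215.8, and Cxcl12 4.95 against 16.7. Fibroblast and endothelial markers summed to 428.05 to 513.51 CPM against 245.12 to 291.24 CPM in Y86C homozygotes. In C442G homozygotes they summed to 269.7 to 402.32 against 137.04 to 179.02 CPM, also without overlap. They overlapped the wild types in the null and C313X lines. These sums hide genes that moved apart. In C442G homozygotes mean Dcn was 301.6 CPM against 74.6 in wild types, but mean Col1a1 was 2.21 against 44.1. In Y86C homozygotes Col1a1 was at 1.89 against 96.0 CPM, and Col3a1 at 0.455 against 14.3 CPM. The part of all these markers in the changes of the 9 genes was not tested.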

How the data were processed

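RNA of sorted mTEChi was profiled by bulk MARS-seq, per the labels' protocols. The tools named, per the submitters' processing notes, are STAR 2.4.2a and HTSeq on build mm10, with cutadapt, bcl2fastq and, downstream, DESeq2; settings, use of strand and collapse of molecular identifiers are not given in the sources used here. The authors deposited 6 tables with raw counts per gene and library, per the file headers, and the 74 raw count columns were used. Genes whose counts stay below 6 in every library of a table are absent from it. The 148 deposited normalized or log-scale columns per library were not used here.

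Counts were scaled to CPM by library total. Log2 changes come from fits with TMM factors, which CPM does not use, so they can differ from ratios of the printed CPM. Tests used edgeR 4.0.16 in R 4.3.3 (TMM factors, filterByExpr on groups, robust glmQLFit, quasi-likelihood F test), with all grouped libraries of a table in 1 fit and Benjamini-Hochberg adjustment over all its tested genes. Differences between lines were fitted over the tables that hold them, on genes listed in all of those tables. SE is that of the log2 change, calculated back from the test as the absolute log2 change over the square root of F. The 95% intervals of log2 changes take a normal spread with this SE. With so few libraries they are approximate and can be too narrow. Scripts were tested on simulated counts. Folds against a group with 0 counts use a floor of 3 counts over the group, and those against 1 to 3 counts carry an exact 95% interval; both cover counting error only. Start-site sequences came from RefSeq on GRCm38.p6, for 8 of the 9 genes, and gene positions from GENCODE on GRCm38.

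The 9 genes and all lists were chosen with earlier results of these data known. Named were the 9 genes, Aire, and from each list up to 2 called genes per comparison of largest log2 change whose mean reached 5 CPM in the group where they were higher; genes outside this rule are marked in the text or are named with a count. Alternatives were RLE factors, a fit of only the compared groups, DESeq2 1.42.0, no filter on low counts, each library left out in turn, all 8 NOD wild types as control, and a replicate block; a fit without the wild types titled C313T and the comparison of strains were added after the data were seen. One library entered no comparison because its labels conflict.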

Additional observations from a re-analysis of the deposited data

Results flagged for a closer look

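In 6 of 50 tests of a library's distance from its group, a library stood apart by Dixon's criterion, where chance marks about 1 in 20; in 3 of the 6 the other libraries all had 0, so that any count would stand apart and this rate does not apply. In the B6 null line these were Casr at 15.9 CPM in Aire +/- (1 of 5 libraries), Nlrp5 at 1.54 CPM in 1 Aire -/- library (the other 3 had 0), and Tg at 10.52 CPM in 1 Aire -/- library (the others had 9.22 to 9.40). In the C442G line they were Tgm4 at 0.706 CPM in homozygous library 83, Th at 1.12 CPM in homozygous library 92 (the other 5 had 0 for both genes), and Tph1 at 13.8 CPM in heterozygous library 85.

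The effect of genotype differed between lines by its own test in 6 cases. Against the B6 null line, the homozygous effect was higher for Tph1 with C313X (log2 difference 2.10), for Tg with C313X (1.26) and for Tg with C442G (1.92). The heterozygous effect was lower with C442G for Nlrp5 (−2.42) and Bpifb1 (−1.20). Between strains, loss of both Aire copies against 1 copy raised Tg on NOD relative to B6 by 2.16.

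The library whose labels conflict, of the B6 null line, had 35.3 CPM of Bpifb1 and 20.9 CPM of Tg, both above the highest wild-type library of its line, 32.8 and 18.3 CPM. Both were below the highest Aire +/- library of the line, 37.3 and 22.9 CPM. The library with conflicting labels also had 19.4 CPM of Th and 2.98 CPM of Nlrp5.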

How the results depend on the processing

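No change that was called in the main run or in an alternative run differed in direction between them. Changes called in neither were not checked for direction. Apart from leaving out libraries, 584 values kept their side of the threshold, 5 lost it and 1 gained it. With 1 library left out, 1445 kept it, 37 lost it and 7 gained it. Of the 2 genes that rose in C442G homozygotes, 1 rose with RLE factors, with DESeq2 and with only the compared groups, and 1 to 3 with a library left out. In C442G heterozygotes 1 gene rose, 0 with DESeq2 and 0 to 1 with a library left out. In NOD +/C313Y 1 rose, 0 with only the compared groups and 0 to 1 with a library left out. In -/C313Y 1 rose, and 2 with all 8 wild types. With a library left out, the genes that rose were 1 to 2 in Y86C homozygotes and 0 to 1 in C313X homozygotes. The homozygous differences from the null that were higher came to 0 to 1 for Y86C and 0 to 2 for C313X, and the heterozygous C442G differences that were lower to 1 to 2.

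Counts over all genes moved by more than 1.5 times in the V303M homozygotes (9 genes; 43 with DESeq2, 1 with only the compared groups) and heterozygotes (0; 2 with DESeq2). They also moved in NOD Aire -/- (1842; 4447 against all 8 wild types), NOD +/C313Y (2402; 1384 with only the compared groups), the heterozygous C313X difference (0; 29 with DESeq2) and the strain difference (147; 227 with DESeq2). The causes were not tested. Without the 2 wild types titled C313T, +/C313Y gave 2 genes lower, 1 higher and 3465 genes in all.

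In -/C313Y and its wild types the titles share numbers 1 to 3. The correlations of same-numbered deviations were 0.0728, −0.0545 and 0.1865, and those of different-numbered ones ran from −0.1675 to 0.1095. So few libraries cannot tell whether the numbers pair them. With the replicate block, fitted on only the compared groups, 2 genes fell and 1 rose as before. It called 3608 genes, beside 3059 with only the compared groups and no block, and 3138 in the main fit. The log2 changes with the block were −3.85 for Th, −2.81 for Bpifb1 and 1.34 for Tg. Leaving out a C313X heterozygote leaves 1 library, assumed to vary like the other groups. Depth limits Tgm4, Nlrp5 on NOD and Pdilt, whose levels rest on few counts.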

Other observations

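Umod, a kidney gene on the minus strand whose start lies 7304 bases from Pdilt on chromosome 7, was read in every table and named here after its values were seen. It ran from 15.3 to 20.3 CPM in the Y86C wild types, 10.6 to 15.2 CPM in heterozygotes and 0.294 to 0.553 CPM in homozygotes, with no overlap between homozygotes and the other groups. In the C442G line it ran from 6.26 to 20.6 CPM in wild types, 1.12 to 5.04 CPM in heterozygotes and 0.267 to 1.12 CPM in homozygotes. Pdilt in the same C442G heterozygotes stayed at 5.55 to 7.34 CPM, within its wild-type range at the upper end and just under its lowest wild type of 5.69 CPM at the lower. These are levels per library, and no test of a difference between the neighbours was run.

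Library 50 of the +/C313Y group held the highest level of Th (2.86 CPM), Bpifb1 (11.8 CPM), Tph1 (5.36 CPM) and Tg (30.0 CPM) among the 4 libraries of that group.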
